A study of Mus musculus with 3 samples.

Results

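Expression of 32 genes of the nucleolus and of ribosome assembly was described in mouse bone marrow at single-cell resolution. The members were taken by symbol from a fixed list of names, and all 32 were among the 32285 genes of the deposited counts. They were grouped by role into RNA polymerase I (2 genes), nucleolar scaffold and regulatory proteins (5), box C/D proteins (3), box H/ACA proteins (4), small subunit factors (7) and large subunit factors (11). Neither the groups of libraries nor the cell classes used below were built from these genes.

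Ribosomes are put together in the nucleolus, where RNA polymerase I transcribes the long precursor of the ribosomal RNAs. Small nucleolar ribonucleoproteins then modify that precursor: the box C/D type carries the methyltransferase fibrillarin and the box H/ACA type carries the pseudouridine synthase dyskerin. Separate sets of assembly factors fold, cut and escort the precursors of the small and the large subunit. Growing and dividing cells need many ribosomes, MYC is a known activator of many of these genes, and inherited defects of ribosome production or of dyskerin are known causes of bone marrow failure.

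The cells came from 3 libraries made with a droplet kit (10x Genomics Single Cell 3' version 2), with 1 library per group. Marrow was collected from leg, hip and spine bones. LSK denotes lineage-negative cells with Sca-1 and Kit on their surface, the gate that holds stem cells and multipotent progenitors; LK denotes lineage-negative cells with Kit, mostly committed progenitors; TBM denotes total bone marrow. No genotype, treatment, strain, age, sex or number of mice is stated in the labels, nor whether Sca-1 positive cells were removed from LK. The labels state 1070, 3441 and 3984 cells for LSK, LK and TBM in turn; the matrices held 1091, 3560 and 4317 barcodes, and 1067, 3461 and 4229 were kept.

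Values are in CPM, the unique molecular identifiers (UMIs) of a gene per 1000000 UMIs of its library or cell class. Kept cells held 11864145, 49936180 and 22058151 UMIs in LSK, LK and TBM, with medians of 9734, 13683 and 3359 per cell. The gate genes followed the labels: the Sca-1 gene Ly6a gave 101, 7.75 and 31.0 CPM in the same order, and Kit 81.2, 34.4 and 7.66. The 4 stem cell markers (Procr, Mecom, Hlf, Mllt3) together reached 298, 29.9 and 16.6 CPM, and the 4 neutrophil markers (Retnlg, S100a8, S100a9, Mmp8) 10.8, 39.9 and 123575. Between 6 and 25 cell barcodes were shared by each pair of libraries. With 1 library per group there is no replicate error and no test; every range in parentheses after a value is a 95% interval for counting error alone, exact Poisson for a level, exact conditional binomial for a ratio and Clopper-Pearson for a share. Total RNA per cell was not measured, so a lower CPM and a larger pool of other RNA cannot be told apart. In a library sum, fewer cells of a type and less RNA per cell cannot be told apart either.

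The E-box core CACGTG, the preferred site of MYC with its partner MAX, was searched for in RefSeq promoter windows of 300 bases (250 before to 50 after the start, build GRCm38.p6). Of the 32 members, 27 matched a window by symbol, with 31 windows in all; Bop1, Fbl, Npm1, Rrp12 and Rrs1 had none. The core lay in 4 of 31 member windows (12.9%) and in 2349 of all 32851 windows (7.15%). The core reads the same on both strands, so 1 search covers both. From these 4 windows only the bases around the core are shown, 5′ to 3′ on the gene's strand, with the coordinates of the printed bases. They are shown because they are the members with the core, and capitals mark it. The Utp20 stretch is shorter because it ends at the edge of its window.
Nop2, chr6:125131811-125131840, plus strand: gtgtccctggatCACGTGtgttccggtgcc
Utp20, chr10:88826765-88826789, minus strand: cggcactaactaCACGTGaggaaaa
Pes1, chr11:3963965-3963994, plus strand: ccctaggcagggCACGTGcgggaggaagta
Wdr43, chr17:71616220-71616249, plus strand: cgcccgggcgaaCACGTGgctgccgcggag
In Nop2 the core began 60 bases before the start site; in Utp20, Pes1 and Wdr43 it lay after it, its first base being base 38, 3 and 18 of the transcript. A match in letters is a description of sequence, not of binding, and the 4 genes covered assembly factors of both subunits. Gene structure was described as well: 6 members (Ncl, Gnl3, Nop56, Nop58, Dkc1 and Wdr43) contain snoRNA genes on their own strand in the GENCODE M21 annotation, 19 in all. That is 18.8% of the members, against 1.66% of the 13876 genes with at least 20 UMIs over the 3 libraries.

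Summed over the 32 genes, transcripts were most abundant in LK and scarce in total marrow. The sum was 6169 (LSK), 7423 (LK) and 1888 CPM (TBM), or 0.617%, 0.742% and 0.189% of all UMIs. The log2 ratio was -0.27 (-0.28 to -0.26) for LSK over LK, 1.98 (1.96 to 1.99) for LK over TBM and 1.71 (1.69 to 1.73) for LSK over TBM. Both sorted libraries were thus far above total marrow and lay close to each other, with LSK somewhat lower. Npm1 and Ncl supplied much of the sum; without them the remaining 30 genes summed to 3509.7 (LSK), 4331 (LK) and 1129 CPM (TBM), in the same order.

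Between LSK and LK no member differed by 2-fold. Of all 13016 genes with at least 20 UMIs over both libraries, 19.9% were at least 2-fold higher in LSK and 3.75% at least 2-fold lower; of the 32 members, all of which were measured, the counts were 0 and 0. The median log2 ratio of the members was -0.26, beside 0.34 for all genes. The ratio was below 0 for 25 members and above 0 for 7. With size factors taken from the median gene, an alternative scale that brings the median of all genes to -0.04, 30 members were below 0 and 2 above, Ddx21 (0.16) and Polr1a (0.05). On the main scale the interval lay wholly below 0 for 22 members and wholly above 0 for 4, where 18.6% and 52.6% of all genes did so. The order from lowest to highest ran from Nhp2 at -0.65 (-0.71 to -0.59) to Ddx21 at 0.55 (0.45 to 0.64).

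Against total marrow nearly all members were higher in LK. In LK over TBM, 30 of 32 were at least 2-fold higher and 0 at least 2-fold lower, where 27.3% of all 13418 genes were higher and 16.7% lower; the median was 2.07, beside 0.37 for all genes. Polr1a (0.73) and Bysl (0.86) were the exceptions, and Rrp1b was at the other end (2.54). In LSK over TBM the count was again 30 of 32, but 19 with size factors, which also took the summed ratio from 1.71 to 0.98. On the main scale the background was 37%, with a median of 1.79 beside 0.67 for all genes. Bysl (0.35) and Ebna1bp2 (0.95) were under 2-fold there. The share of all genes was not counted with size factors, where the medians were 1.06 for the members and -0.03 for all genes. With size factors Bysl was lower in LSK than in TBM (-0.37). These comparisons share libraries, so their values stand side by side and are not independent.

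**Figure D1:**
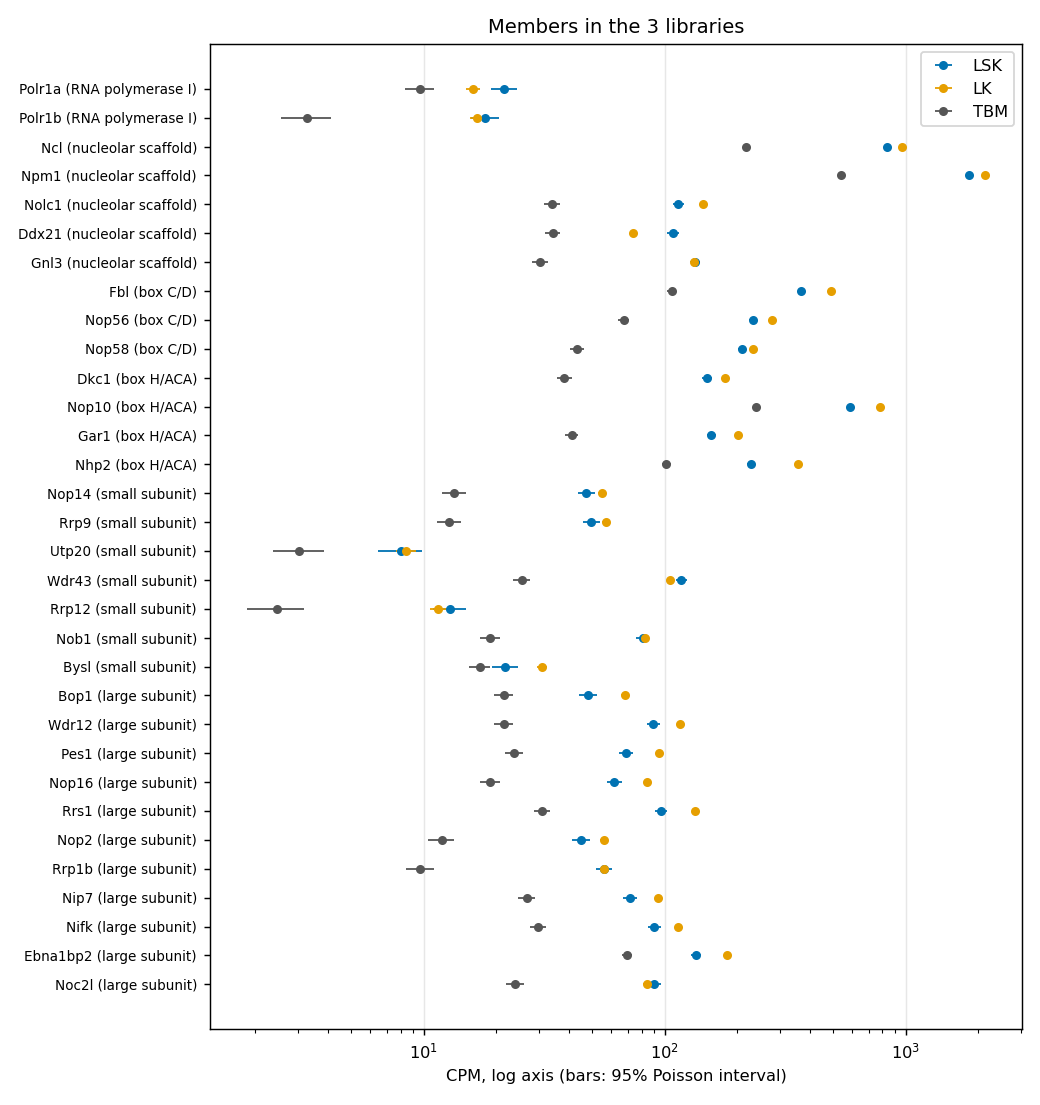
Level of each of the 32 genes in LSK, LK and TBM, in CPM on a log axis, with bars for the exact 95% Poisson interval. On this scale the TBM point is the lowest of the 3 for every gene (with size factors Bysl is lower in LSK), and the LSK and LK points lie within 2-fold of each other.

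The members are described by role, from transcription of the precursor onward. The RNA polymerase I genes were the only role whose sum was higher in LSK than in LK, a direction that flipped with size factors (-0.11). Together they gave 39.5 (LSK), 32.6 (LK) and 12.9 CPM (TBM), a log2 ratio of LSK over LK of 0.28 (0.13 to 0.43). Polr1a, the largest subunit, was found at 21.6 (LSK), 16.0 (LK) and 9.61 CPM (TBM). For Polr1b, the second largest subunit, the levels were 18.0 (LSK), 16.7 (LK) and 3.26 CPM (TBM). Polr1a was higher in LSK than in LK beyond counting error, with a log2 ratio of 0.43 (0.22 to 0.64), while that of Polr1b was 0.11 (-0.12 to 0.33) and included 0. Polr1a lies at chr6:71909053-71984935 on the plus strand of GRCm38.

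The 5 scaffold and regulatory genes carried 48.9% of member UMIs in LSK, 46.4% in LK and 45.4% in TBM. Npm1 encodes nucleophosmin, a histone and ribosome chaperone that holds the granular layer of the nucleolus; it measured 1825 (LSK), 2128 (LK) and 540.2 CPM (TBM). Ncl encodes nucleolin, which binds the ribosomal RNA precursor, and gave 834 (LSK), 965 (LK) and 218 CPM (TBM). Both were highest in LK, with log2 ratios of LSK over LK of -0.22 and -0.21. Npm1 lies at chr11:33152287-33163206 on the minus strand and Ncl at chr1:86344719-86359400 on the minus strand. Npm1 has processed pseudogenes in the mouse genome, and how reads shared with copies were treated is not given in the sources used here.

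Nolc1, a chaperone of small nucleolar ribonucleoproteins, followed the same order with 114 (LSK), 144 (LK) and 34.0 CPM (TBM). Ddx21, an RNA helicase that links RNA polymerase I to precursor processing, did not: it gave 108 (LSK), 74.1 (LK) and 34.2 CPM (TBM). Its log2 ratio of LSK over LK was 0.55, the highest of the 32, and its ratio of LK over TBM of 1.12 was the lowest after those of Polr1a and Bysl. Within LK it was uneven, with 58.2 CPM in Elane cells, 121 in Car1 cells and 143 in Rhd cells (classes defined below), so the 1300 Elane cells of LK had less of it than the erythroid classes. Gnl3, which encodes the GTPase nucleostemin named for its abundance in stem cells, showed no difference between the sorted gates beyond counting error: 133 (LSK), 132 (LK) and 30.4 CPM (TBM), log2 0.02 (-0.06 to 0.10). With size factors Gnl3 was lower in LSK (-0.37).

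All 3 box C/D genes had the order LK, LSK, TBM. Fbl, the methyltransferase fibrillarin, stood at 368 (LSK), 488 (LK) and 107 CPM (TBM). Its partner Nop56 had 232 (LSK), 279 (LK) and 67.5 CPM (TBM), and the other partner in the particle, Nop58, 209 (LSK), 233 (LK) and 43.2 CPM (TBM). Summed, the log2 ratio was -0.31 (-0.34 to -0.27) for LSK over LK and 2.20 (2.16 to 2.25) for LK over TBM, the latter the largest of the 6 roles.

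The 4 box H/ACA genes showed the widest gap between the sorted gates. Their sum was 1116 (LSK), 1517 (LK) and 420.0 CPM (TBM), with a log2 ratio of LSK over LK of -0.44 (-0.47 to -0.42). Dkc1, the pseudouridine synthase dyskerin that also stabilises telomerase RNA, had 149 (LSK), 178 (LK) and 38.3 CPM (TBM). The end of Dkc1 overlaps Mpp1 on the opposite strand by 45 bases. Mpp1 stood at 36.0 (LSK), 51.8 (LK) and 81.7 CPM (TBM), and its part in the Dkc1 values was not tested. Nop10, a small core protein of the particle, had 584 (LSK), 782 (LK) and 239 CPM (TBM). Gar1, which sits beside dyskerin in the mature particle, had 156 (LSK), 201 (LK) and 41.0 CPM (TBM). Nhp2, the fourth core protein, had 227 (LSK), 357 (LK) and 101 CPM (TBM) and the lowest ratio of LSK over LK of all members. Dyskerin itself was closer between the gates (-0.25) than its partners Gar1 (-0.36), Nop10 (-0.42) and Nhp2 (-0.65), and the interval of Dkc1 overlapped that of Gar1 but not those of Nop10 and Nhp2.

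In sum, small subunit factors were nearly level between LSK and LK on the main scale, but lower in LSK with size factors (-0.44). The 7 genes summed to 337 (LSK), 350.0 (LK) and 92.8 CPM (TBM), a log2 ratio of LSK over LK of -0.05 (-0.10 to -0.0043). Nop14, a factor of the early small subunit precursor, measured 47.3 (LSK), 54.9 (LK) and 13.3 CPM (TBM), and Rrp9, a protein of the U3 particle, 49.5 (LSK), 57.0 (LK) and 12.7 CPM (TBM); both were lower in LSK beyond counting error. Utp20, a large scaffold protein, was sparse at 8.01 (LSK), 8.45 (LK) and 3.04 CPM (TBM), and its interval for LSK over LK included 0. Wdr43, a protein of the early processome, was higher in LSK, with 117 (LSK), 105 (LK) and 25.4 CPM (TBM) and a log2 ratio of 0.16 (0.07 to 0.25), but lower with size factors (-0.23). Rrp12, an export factor, had 12.8 (LSK), 11.5 (LK) and 2.45 CPM (TBM). Nob1, the endonuclease that makes the final cut of the small subunit RNA, had 80.8 (LSK), 82.4 (LK) and 18.8 CPM (TBM). Neither differed between the sorted gates beyond counting error on the main scale. With size factors Utp20 (-0.47), Rrp12 (-0.23) and Nob1 (-0.42) were lower in LSK.

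Bysl, which encodes the assembly factor bystin, gave 21.7 (LSK), 31.0 (LK) and 17.0 CPM (TBM) and was the member with the lowest ratio of LSK over TBM. Its log2 ratio of LSK over LK was -0.51 (-0.71 to -0.32). Its gene (chr17:47599331-47611492, minus strand) overlaps the end of Ccnd3, a cyclin gene on the opposite strand, by 361 bases. In LSK, LK and TBM in turn Ccnd3 stood at 155, 111 and 396 CPM, highest in TBM. Whether counting used strand is not given in the sources used here, so the part of Ccnd3 in the Bysl values was not tested.

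Large subunit factors were lower in LSK for 10 of the 11 genes by value, and the sum was 853 (LSK), 1081 (LK) and 288 CPM (TBM), a log2 ratio of LSK over LK of -0.34 (-0.37 to -0.31). Bop1, Pes1 and Wdr12 form a trimer (PeBoW) needed for large subunit processing. Bop1 had 48.0 (LSK), 68.2 (LK) and 21.5 CPM (TBM), Pes1 68.9 (LSK), 94.9 (LK) and 23.7 CPM (TBM) and Wdr12 89.7 (LSK), 115 (LK) and 21.4 CPM (TBM). All 3 were lower in LSK than in LK, with log2 ratios of -0.51, -0.46 and -0.36.

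Among the other large subunit factors, Rrs1, which helps load the ribonucleoprotein of the small ribosomal RNA of that subunit, had 96.3 (LSK), 133 (LK) and 31.0 CPM (TBM). Nop16, a nucleolar protein reported as a MYC target, had 61.8 (LSK), 84.3 (LK) and 18.8 CPM (TBM), and the ribosomal RNA cytosine methyltransferase Nop2 45.0 (LSK), 55.8 (LK) and 11.8 CPM (TBM). Nip7 had 71.7 (LSK), 93.5 (LK) and 26.7 CPM (TBM), Nifk, which binds the proliferation antigen Ki-67, 90.4 (LSK), 113 (LK) and 29.7 CPM (TBM), and Ebna1bp2 134 (LSK), 182 (LK) and 69.8 CPM (TBM). Each of these 6 was lower in LSK than in LK beyond counting error. Rrp1b, a nucleolar protein that binds a protein phosphatase, showed no difference between the sorted gates beyond counting error, with 56.1 (LSK), 56.2 (LK) and 9.66 CPM (TBM) and a log2 interval from -0.13 to 0.12, and had the highest ratio of LK over TBM. With size factors Rrp1b was lower in LSK (-0.39). Noc2l, a protein that also inhibits histone acetylation, was the 1 large subunit member higher in LSK, with 90.4 (LSK), 83.9 (LK) and 23.9 CPM (TBM), but it was lower there with size factors (-0.28) and with equal weight for each cell (-0.03). The end of Noc2l overlaps Samd11 on the opposite strand, and Samd11 stood at 0.337, 0.160 and 12.9 CPM; its part in the Noc2l values was not tested.

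**Figure D2:**
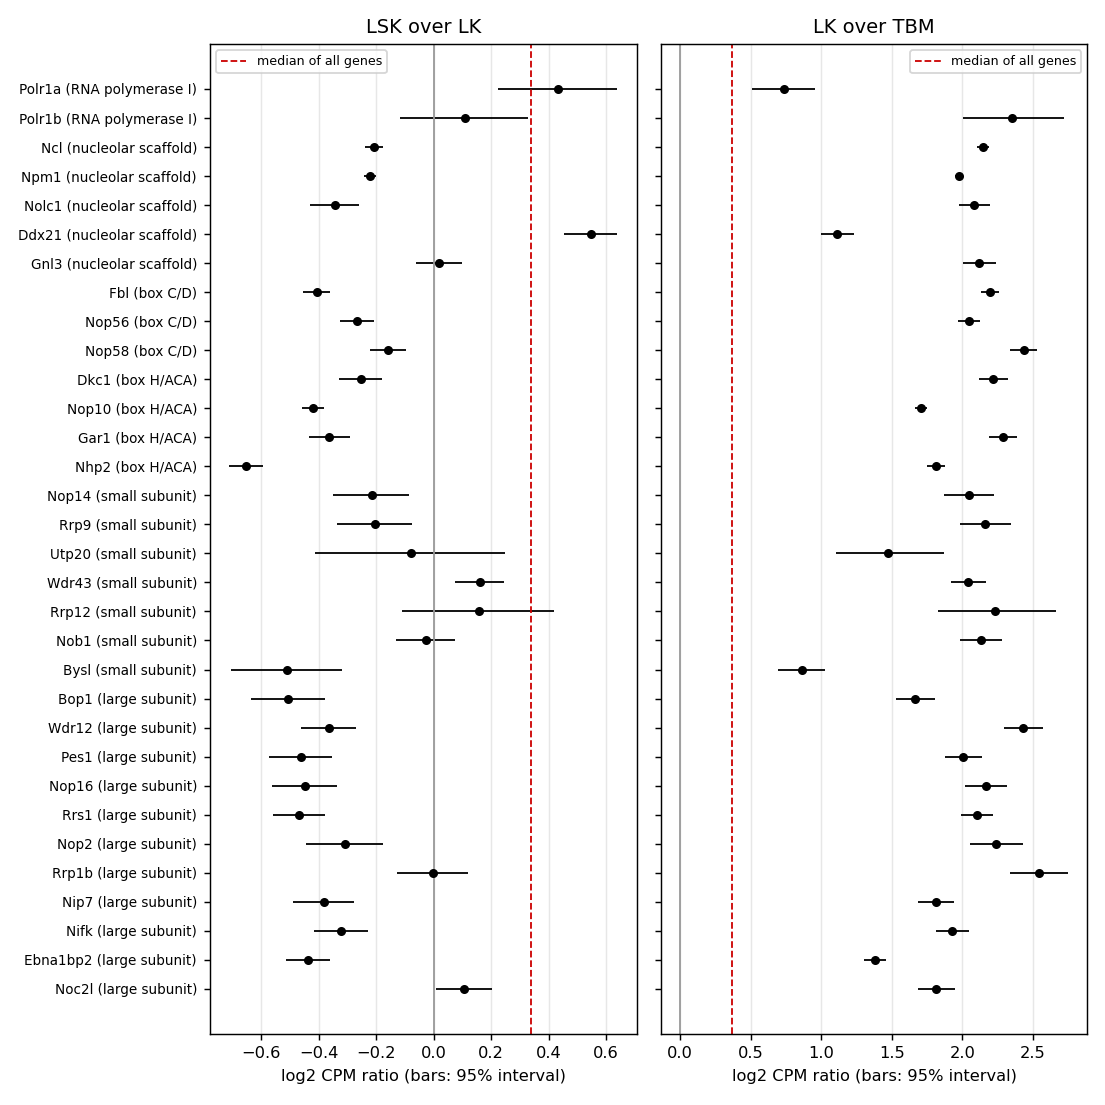
Log2 CPM ratio of LSK over LK (left) and LK over TBM (right) for each gene, with bars for the 95% counting interval and a dashed line at the median of all genes. On the left 25 of 32 points are below 0 (30 with size factors) while the median of all genes is 0.34; on the right all points are above 0 and all are above the median of all genes, 0.37.

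Other genes of the pathway had the same order of libraries with smaller ratios. A list of 142 further ribosome assembly genes (further polymerase I factors, snoRNA particle proteins, processome and exosome subunits, and assembly factors) summed to 8821 (LSK), 9749 (LK) and 4162 CPM (TBM). In LK over TBM 98 of the 141 measured were at least 2-fold higher and 0 at least 2-fold lower, beside 27.3% and 16.7% of all 13418 genes. The median was 1.33, beside 2.07 for the members and 0.37 for all genes. The highest were Rpp40, a ribonuclease P and MRP protein (2.81), Nat10, an RNA acetyltransferase (2.41), and Rcl1 (2.40). At the other end stood Ttf1, a polymerase I termination factor (0.32), Rpp21 (0.06) and the kinase Riok3 (-0.88). In LSK over LK 0 of 142 differed by 2-fold, where 19.9% of all 13016 genes were higher and 3.75% lower, and the median was -0.11. Dhx37 (0.90), Pdcd11 (0.75) and Mdn1 (0.59) were the highest, and Mrto4 (-0.68), Exosc8 (-0.69) and Rpf2 (-0.69) the lowest.

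The end products and the known activator did not follow the members in each comparison. The 83 ribosomal protein genes took 31.5% of UMIs in LSK, 30.6% in LK and 15.3% in TBM, a log2 ratio of LSK over LK of 0.04, beside -0.27 for the members; with size factors both were below 0, at -0.35 and -0.65. Myc stood at 117 (LSK), 94 (LK) and 22.4 CPM (TBM), with a log2 ratio of LSK over LK of 0.31 (0.22 to 0.40), above 0 where the members were below, though it too was below 0 with size factors (-0.08). Mycn stood at 56.1 (LSK), 8.67 (LK) and 2.54 CPM (TBM). The 41 S phase genes summed to 4053 (LSK), 4455 (LK) and 2790.2 CPM (TBM).

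At matched depth the per-cell sums separated total marrow from both gates, and LSK from LK only by a shift. Random draws brought each cell to 2000 UMIs, and 0 LSK, 9 LK and 1288 TBM cells (30.5% of TBM) with fewer UMIs were left out. The median cell then held 11 member UMIs (quartiles 8 and 15) in LSK, 14 (10 and 17) in LK and 2 (0 and 5) in TBM, and the means were 11.5, 14.1 and 3.04. Cells with 0 member UMIs numbered 1 of 1067 in LSK (0.0937%), 0 of 3452 in LK, which allows a share of up to 0.107%, and 924 of 2941 in TBM (31.4%, 29.7% to 33.1%). The number of different members seen per cell averaged 7.09 (LSK), 8.05 (LK) and 2.26 (TBM). The variance of the sum over cells divided by its mean was 2.03, 1.95 and 4.86, so TBM cells were the most unequal for their mean.

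**Figure D3:**
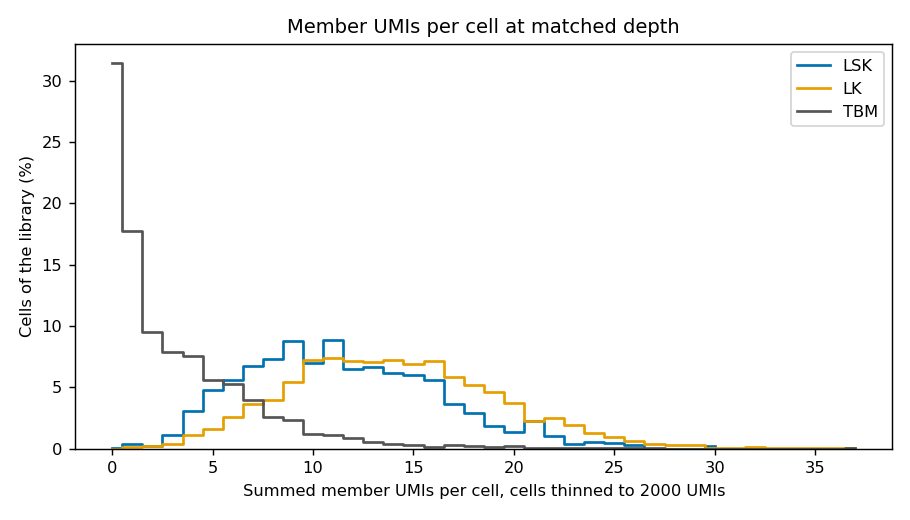
Share of cells of each library (vertical, %) by summed member UMIs per cell (horizontal) after thinning to 2000 UMIs. LSK and LK form single humps around 11 and 14 UMIs that overlap over most of their width, while 31.4% of TBM cells sit at 0.

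Cells were next sorted into classes by lineage markers that are not members. Per cell and 10000 UMIs the cuts were at least 2000 globin UMIs (hemoglobin-making erythroblasts), 5 for Fcnb (neutrophil precursors), 20 for Retnlg (later neutrophils), 5 for Cd79a (B lineage), 20 for Elane (neutrophil-primed progenitors), 5 for F13a1 (monocyte lineage) and 5 for Car1 (early erythroid), and at least 1 UMI of Rhd (erythroid), Procr (stem cells) or Flt3 (multipotent progenitors). Cells that met cuts of different lineages were put aside as several, and cells that met none are called none. The classes are ranges of marker counts and not cell types. The names in parentheses need not hold in each library, as for Flt3 in TBM (below). Many cells lie near a cut: 126 LK cells were between the Elane cut and 0.5 of it. The sum was measured in the 22 classes with at least 20 cells.

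Rhd cells of LK stood above every other class, and the 3 classes with the lowest sums were the Fcnb, globin and Retnlg classes of total marrow. The 106 LK Rhd cells reached 11299.6 CPM (11165 to 11436). The other 7 LK classes fell between 6803 and 7572 CPM: Car1 7572, Flt3 7452, F13a1 7358, Elane 7271, Procr 6932, none 6908 and Procr with Flt3 6803. Neighbours among Car1, Flt3, F13a1 and Elane had overlapping intervals, as did neighbours among Procr, none and Procr with Flt3. In pooled CPM all 4 LSK classes with at least 20 cells came below all LK classes of that size. The LSK levels were 6348 for Flt3, 6286 for none, 6143 for Procr with Flt3 and 5305 for Procr.

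In pooled CPM all TBM classes with at least 20 cells came below all LSK classes of that size. They ran from Elane (5013), Rhd (4893) and Flt3 (4309) through Cd79a (3071), F13a1 (2016), several (1753) and none (1738) to Fcnb (882), globin (332) and Retnlg (255). Elane and Rhd overlapped, as did several and none; no other neighbours in TBM did. The sum thus spanned from 255 to 11299.6 CPM. Thinned to 2000 UMIs, the median cell held 22 member UMIs in LK Rhd, 14 in LK Car1, Flt3 and Elane, 11 in LK Procr, 12 in LSK Flt3, 9 in LSK Procr, 9 in TBM Elane, 7 in TBM Flt3, 5 in TBM Cd79a, 4 in TBM Rhd, 1 in TBM Fcnb and 0 in TBM Retnlg and globin; cells under that depth, 716 of 1295 TBM Cd79a and 414 of 923 TBM Retnlg cells among them, were left out. At that depth the order changed: TBM Rhd came below TBM Flt3 by mean (6.89 and 7.44) and by median, and below TBM Cd79a (mean 5.82) by median only, while LSK Flt3 came above LK Procr by median but not by mean (12.1 and 12.6). Median UMIs per cell also varied between the classes, from 1944 in TBM Cd79a and 2135 in TBM Retnlg to 21982 in LK Rhd.

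**Figure D4:**
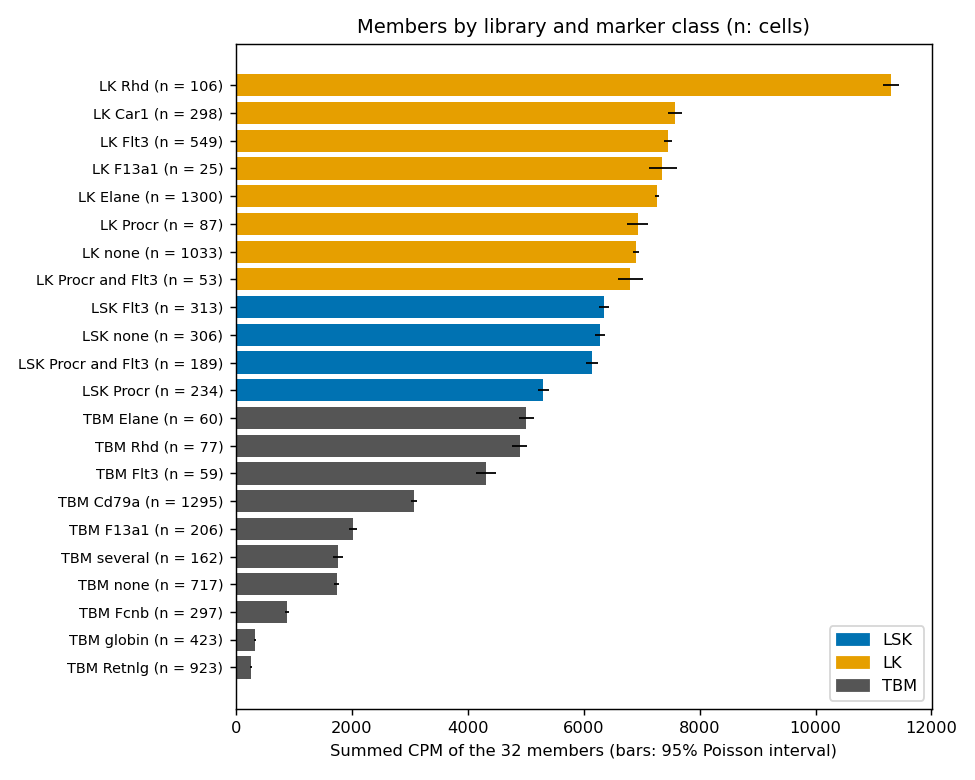
Summed CPM of the 32 genes in each library and marker class with at least 20 cells, with bars for the exact 95% Poisson interval and the number of cells in the label. LK Rhd cells stand at 11299.6 CPM, the other LK classes between 6803 and 7572, LSK classes below them, and TBM classes fall to 255 CPM.

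Within LSK, cells with Flt3 had more member RNA than cells with Procr. The level was 6348 CPM (6268 to 6429) in 313 Flt3 cells and 5305 CPM (5206 to 5404) in 234 Procr cells, and the log2 ratio was 0.26 (0.23 to 0.29). By value 27 of 32 members were higher in Flt3 cells; 0 were at least 2-fold higher and 0 at least 2-fold lower, where 2.81% and 5.6% of all 10219 genes were. The interval lay wholly above 0 for 14 members and wholly below 0 for 0, against 12.4% and 14.1% of all genes. Wdr12 (0.48), Nhp2 (0.40), Nop58 (0.36) and Nolc1 (0.35) were among them. By role the ratio was 0.29 for box C/D, 0.28 for scaffold, 0.26 for box H/ACA and 0.23 for large subunit genes, while the small subunit interval included 0, at 0.10 (-0.04 to 0.23). Ribosomal protein genes were not higher with them (-0.05), and Myc was 113 CPM in Flt3 and 115 CPM in Procr cells. The S phase genes stood at 4370.2 CPM in Flt3 and 2739 CPM in Procr cells, and 22.4% and 10.7% of thinned cells had a UMI of the division genes Mki67 or Top2a; their part in the difference was not tested.

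Matching the marker between the gates left LSK lower in the classes with at least 20 cells in both. Below that size, the 14 LSK Elane cells stood higher, at 7758 CPM (7483 to 8041) beside 7271 (7238 to 7303) in LK. The intervals of the 6 Car1 and the 2 F13a1 cells of LSK overlapped those of the same classes in LK. The log2 ratio of LSK over LK was -0.39 (-0.43 to -0.34) among Procr cells, -0.15 (-0.20 to -0.09) among cells with both, -0.23 (-0.25 to -0.21) among Flt3 cells and -0.14 (-0.16 to -0.11) among cells with none, beside -0.27 for the whole libraries. Among Procr cells 0 members were at least 2-fold higher and 0 at least 2-fold lower, beside 8.67% and 2.03% of all 8886 genes; the interval was wholly below 0 for 15 members and wholly above for 0, against 10.5% of all genes in each direction. Nhp2 (-0.75), Rrp1b (-0.73) and Ebna1bp2 (-0.66) were the lowest. Among Flt3 cells 20 intervals lay wholly below 0 and 1 wholly above, beside 13.1% and 29.7% of all 10710 genes, and the 1 was that of Ddx21, at 0.48 (0.29 to 0.67). The LK Procr cells held 4406 CPM of the 4 neutrophil progenitor markers and 342 of the 4 stem cell markers, the LSK Procr cells 591 and 623, so the same marker did not select like cells in both gates.

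In LK the erythroid classes differed more than the myeloid ones. From Car1 to Rhd cells the sum went from 7572 to 11299.6 CPM, log2 0.58 (0.55 to 0.61). By 2-fold 0 members were higher and 0 lower, where 6.17% and 13.5% of all 8564 genes were, but the interval lay wholly above 0 for 25 of 32 and wholly below for 0, against 23% of all genes in each direction; the member median was 0.45, beside -0.03 for all genes. Bop1 (0.90), Nolc1 (0.90), Bysl (0.89), Nhp2 (0.88) and Nip7 (0.84) were the highest, and Npm1 was 2207 CPM in Car1 and 3624 CPM in Rhd cells. Nob1 (-0.09), Polr1a (-0.08), Rrp12 (-0.01) and Wdr12 (0.05) were among the members whose intervals included 0. By role the log2 ratio was 0.69 (0.65 to 0.73) for scaffold genes and 0.32 (0.20 to 0.44) for small subunit factors, and these intervals did not overlap.

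Ribosomal protein genes were lower in Rhd than in Car1 cells (-0.14), and Myc was 51.8 CPM in Rhd and 101 CPM in Car1 cells. The S phase genes went from 3039 to 5291 CPM. Median UMIs per cell were 21982 in Rhd and 6496 in Car1 cells; the Rhd cut of 1 UMI favours deep cells, and its part in the result was not tested. At 2000 UMIs per cell the medians were 22 and 14. Car1 cells divided by their Car1 count gave 6885 CPM at 5 to 20 and 8285 CPM at 20 or more per 10000 UMIs; these finer groups, here and below, were chosen after the class values were seen.

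The F13a1 and Elane classes of LK did not differ in the sum beyond counting error at the main cuts. LK F13a1 cells held 2489 CPM of the monocyte progenitor markers (F13a1, Irf8, Ms4a6c, Csf1r). They also held 13598 CPM of the neutrophil progenitor markers (Elane, Ctsg, Prtn3, Mpo). LK Elane cells held 722 and 33957 CPM of the same sets. The F13a1 class of 25 cells gave a log2 ratio over the 1300 Elane cells of 0.02 (-0.03 to 0.06), and 0 of 32 members were at least 2-fold higher or lower, where 22.5% and 2.55% of all 11118 genes were. With the class cuts halved the ratio of the sums was 0.14. Intervals lay wholly above 0 for 2 members (Npm1 and Dkc1) and wholly below for 3, beside 7.48% and 4.12%. Elane cells that also passed the F13a1 cut had 7075 CPM and those without F13a1 7305. Along the Elane count the sum was 7601 CPM at 20 to 50 per 10000 UMIs, 7597 at 50 to 100, 7124 at 100 to 200 and 6478 at 200 or more, so the cells richest in Elane had the least. Of the LK cells with no class marker, those with the mast cell gene Cpa3 had 6277 CPM and those with the megakaryocyte gene Pf4 7514.

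Along the neutrophil lineage of total marrow each later class had less member RNA. Elane cells of TBM had 5013 CPM (4886 to 5142), Fcnb cells 882 CPM (850.3 to 915) and Retnlg cells 255 CPM (236 to 274). From Fcnb to Elane the log2 ratio was 2.51 (2.44 to 2.57), and from Retnlg to Fcnb 1.79 (1.67 to 1.92). In the first step 29 members had at least 20 UMIs over both classes and 29 were at least 2-fold higher in Elane cells, beside 36% of all 7852 genes; Polr1b, Utp20 and Rrp12 were too sparse. In the second step 26 were measured, 23 were at least 2-fold higher in Fcnb cells and 1 at least 2-fold lower, beside 33.9% and 14.8% of all 7832 genes. A member reached these counts mostly through the class where it was high, so they are a description. Npm1 went from 1441 through 187 to 43.6 CPM, Ncl from 485 through 103 to 26.1, and Nop56 from 166 through 30.6 to 3.03. Ebna1bp2 differed least in the first step, with 153, 67.7 and 37.1 CPM. Ribosomal protein genes were lower too, with log2 ratios of 1.71 and 1.26 for the same steps.

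Polr1a was the exception, with 11.0 CPM in Elane, 2.15 in Fcnb (7 UMIs) and 22.0 in Retnlg cells (58 UMIs). That is near its level in whole LSK (21.6 CPM), in a class where 18 other members had their lowest value. The annotated antisense gene within Polr1a, Gm26628, was at or near 0 CPM in each library. Retnlg cells also held 3533 CPM of the 5 erythroblast markers (Hba-a1, Hba-a2, Hbb-bs, Hbb-bt, Alas2), genes of another lineage; the part of such foreign RNA in these values was not tested. Their total UMIs were dominated by the 4 neutrophil markers, at 386564 CPM.

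Globin cells of total marrow also had little member RNA. TBM Rhd cells had 4893 CPM (4764 to 5024) and globin cells 332 CPM (312 to 353), a log2 ratio of 3.88 (3.78 to 3.98). Globin made up 60.1% of UMIs in the globin class, and with the total counted without globin, ribosomal protein, mitochondrial, S100a8 and S100a9 UMIs the ratio was 3.06. Of 28 members with at least 20 UMIs 28 were at least 2-fold higher in Rhd cells, beside 64.8% of all 6574 genes, counting a gene with fewer than 3 UMIs in a class as 3; Rrp9, Utp20, Rrp12 and Rrp1b had 0 UMIs in globin cells. Here too a member was measured mostly through the class where it was high, so the count is a description and supports nothing. Nhp2 went from 284 to 4.49 CPM and Npm1 from 1489.5 to 66.0. Bysl (48.1 to 15.7), Dkc1 (123 to 28.8) and Noc2l (72.2 to 14.1) differed least. The ends of these genes overlap Ccnd3, Mpp1 and Samd11 in turn on the opposite strand, and the part of those neighbours was not tested. Globin cells at 2000 to 5000 globin UMIs per 10000 had 742 CPM and those at 5000 or more 212.

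The B lineage held an intermediate level. Cd79a cells had 3071 CPM (3015 to 3129). The 128 of them with Igll1 or Vpreb1, the surrogate light chain genes of early B cells, had 4598 CPM and the other 1167 had 2552, log2 0.85 (0.79 to 0.90). Median depth was 5378 and 1905 UMIs, and a call on 1 UMI favours deep cells; at 2000 UMIs per cell the means were 7 and 5.56 member UMIs, a smaller log2 ratio of 0.33, over 106 and 473 cells. Of 29 measured members 6 were at least 2-fold higher in the early cells, beside 11% of all 8669 genes, and 18 had an interval wholly above 0, beside 23.5%. Rrp1b (2.56), Npm1 (1.32), Nop58 (1.28), Ncl (1.11) and Gar1 (1.03) were higher. Bop1 (-0.17), Ebna1bp2 (-0.10) and Wdr43 (interval -0.53 to 0.51) were among those that did not differ beyond counting error. S phase genes were 5983 and 2003 CPM in the early and other cells. Cd79a cells held 4513 CPM of the neutrophil and 2369.9 CPM of the erythroblast markers, and the part of such foreign RNA was not tested.

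Cells of TBM without a class marker were mixed. Those with S100a8 and S100a9 had 339 CPM, close to Retnlg cells, those with the T cell genes Cd3e or Trbc2 3428, those with mast cell or basophil genes 2773, those with Csf1r 2319.5 and the rest 3418.

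Total marrow was below LK when the marker was the same, in the classes with at least 20 cells in both. Below that size, the 6 TBM Car1 cells stood at 6984 CPM (6210 to 7828). Their interval overlapped that of LK Car1 cells, 7457 to 7688 CPM. The 3 Procr cells of TBM were lower than those of LK, at 2487 CPM (1868 to 3245). The log2 ratio of LK over TBM was 0.79 (0.73 to 0.85) among Flt3 cells, 0.54 (0.50 to 0.57) among Elane cells, 1.87 (1.80 to 1.94) among F13a1 cells and 1.21 (1.17 to 1.25) among Rhd cells, beside 1.98 for the whole libraries. With abundant genes left out of the total, F13a1 cells had the larger ratio, 2.03, beside 1.86 for the whole libraries, while the other 3 classes had smaller ones. At 2000 UMIs per cell the ratio among Rhd cells was 1.64. At least 2-fold higher in LK were 14 of 32 members among Flt3 cells (5.65% of all 9983 genes), 4 of 32 among Elane cells (4.46% of 11172), 27 of 28 measured among F13a1 cells (15.9% of 7005) and 22 of 32 among Rhd cells (15% of 7892); as above, members measured mostly through the class where they are high make these a description. Among Elane cells Rrp12 (1.24), Dkc1 (1.19), Nop58 (1.13) and Nop2 (1.06) were those 4, and Ncl was 926 CPM in LK and 485 in TBM. In TBM Elane cells the Rrp12 value rested on 6 UMIs and that of Nop2 on 32. Ddx21 (-0.29), Utp20, Nhp2 and Bysl were among the members whose intervals included 0 in Elane cells. The ratio of LK over TBM for ribosomal protein genes was 0.19 among Flt3, -0.07 among Elane, 0.49 among F13a1 and 0.06 among Rhd cells.

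The same marker did not mean the same stage or lineage. TBM Flt3 cells held 2154 CPM of the monocyte progenitor markers (F13a1, Irf8, Ms4a6c, Csf1r) and 961 CPM of the multipotent progenitor markers (Flt3, Cd34, Cd48). LK Flt3 cells held 635 and 941 CPM. TBM Elane cells held 1094 CPM of the neutrophil precursor markers (Fcnb, Ltf, Camp, Ngp) and LK Elane cells 7.35. F13a1 cells of LK carried 13598 CPM of the neutrophil progenitor markers (Elane, Ctsg, Prtn3, Mpo) and those of TBM 1175. TBM Rhd cells held 4.90% globin UMIs, LK Rhd cells 0.0102%. The TBM Rhd cells also held 19123 CPM of the neutrophil markers and 7986 CPM of the neutrophil precursor markers, the LK Rhd cells 2.53 and 1.68. The part of foreign RNA, doublets or cells of another lineage in the TBM Rhd values was not tested. Restricted to the 37 TBM Rhd cells with globin under 100 per 10000 UMIs, the TBM level was 7359 CPM, against 3175 in the other 40, and the ratio of LK over TBM was 0.62 (0.57 to 0.67), with 1 of 32 members at least 2-fold higher (6.94% of 7478 genes). At 2000 UMIs per cell the means were 21.5 in LK Rhd cells and 9.18 in the TBM Rhd cells with little globin, a larger log2 ratio of 1.23, where a pooled level gives deeper cells more weight. The TBM Rhd cells with little globin were uneven, with quartiles of 2 and 15.75 member UMIs. The TBM Rhd cells with more globin averaged 4.90.

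Over whole libraries, cells with transcripts of division genes differed little in member RNA from the other cells, while some marker classes differed more, in both directions. After thinning, at least 1 UMI of Mki67 or Top2a was found in 17.2% (LSK), 18.6% (LK) and 24.3% (TBM) of cells. The log2 ratio of member UMIs, with over without, was 0.12 (0.06 to 0.19) in LSK, 0.03 (0.0017 to 0.07) in LK and 0.01 (-0.06 to 0.08) in TBM. Within LSK it was 0.28 (0.10 to 0.46) among Procr cells, and Flt3 cells averaged 12.1 UMIs in both groups (interval -0.11 to 0.11). Within LK the ratio was 0.12 (0.04 to 0.20) among Flt3 cells, and the intervals of Elane, Car1, Rhd and none included 0. Within TBM it was 0.43 (0.14 to 0.71) among Fcnb, 0.17 (0.06 to 0.29) among Cd79a, 0.57 (0.21 to 0.93) among several and -0.56 (-0.82 to -0.30) among Rhd cells. The intervals of F13a1 and none included 0 there. In globin cells of TBM the log2 ratio was 0.93 (0.51 to 1.36), with means of 0.708 and 0.372 UMIs, near the level of 1 UMI. Globin cells made up 250 of the 714 TBM cells with a division UMI, so the value for all of TBM mixes classes of unlike level. A missing UMI at this depth does not show that a cell was not dividing.

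The members shared one profile over the classes to differing degrees. Over 21 library and marker classes (the several class left out), Spearman's rho between a member and the sum of the other members was highest for Pes1 (0.98), Fbl (0.98) and Rrs1 (0.98), and lowest for Polr1a (0.27), Utp20 (0.66) and Rrp12 (0.69). The classes share libraries and depth, and Polr1a, Utp20 and Rrp12 are sparse, so these values are a description. Of the 32 genes 25 had their highest value in LK Rhd cells. By value the others peaked in LK Procr (Rrp12 and Rrp1b), LK Car1 (Nob1), LK F13a1 (Pes1), LK Procr with Flt3 (Polr1b), LSK Flt3 (Polr1a) and TBM Rhd (Utp20). For each of these genes the interval in that class overlapped the interval in LK Rhd cells. The peaks of Rrp12, Polr1b and Utp20 rested on 12, 15 and 15 UMIs. The lowest value was in TBM Retnlg for 18 genes, in TBM globin for 13 and in TBM F13a1 for 1 (Polr1b, with 0 UMIs there, 1 in globin and 2 in Retnlg cells). These counts of highest and lowest values were not made for all genes, so they have no background share and are a description. Globin took 60.1% of UMIs in globin cells and the neutrophil markers 386564 CPM in Retnlg cells, which leaves a smaller share for all other genes.

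**Figure D5:**
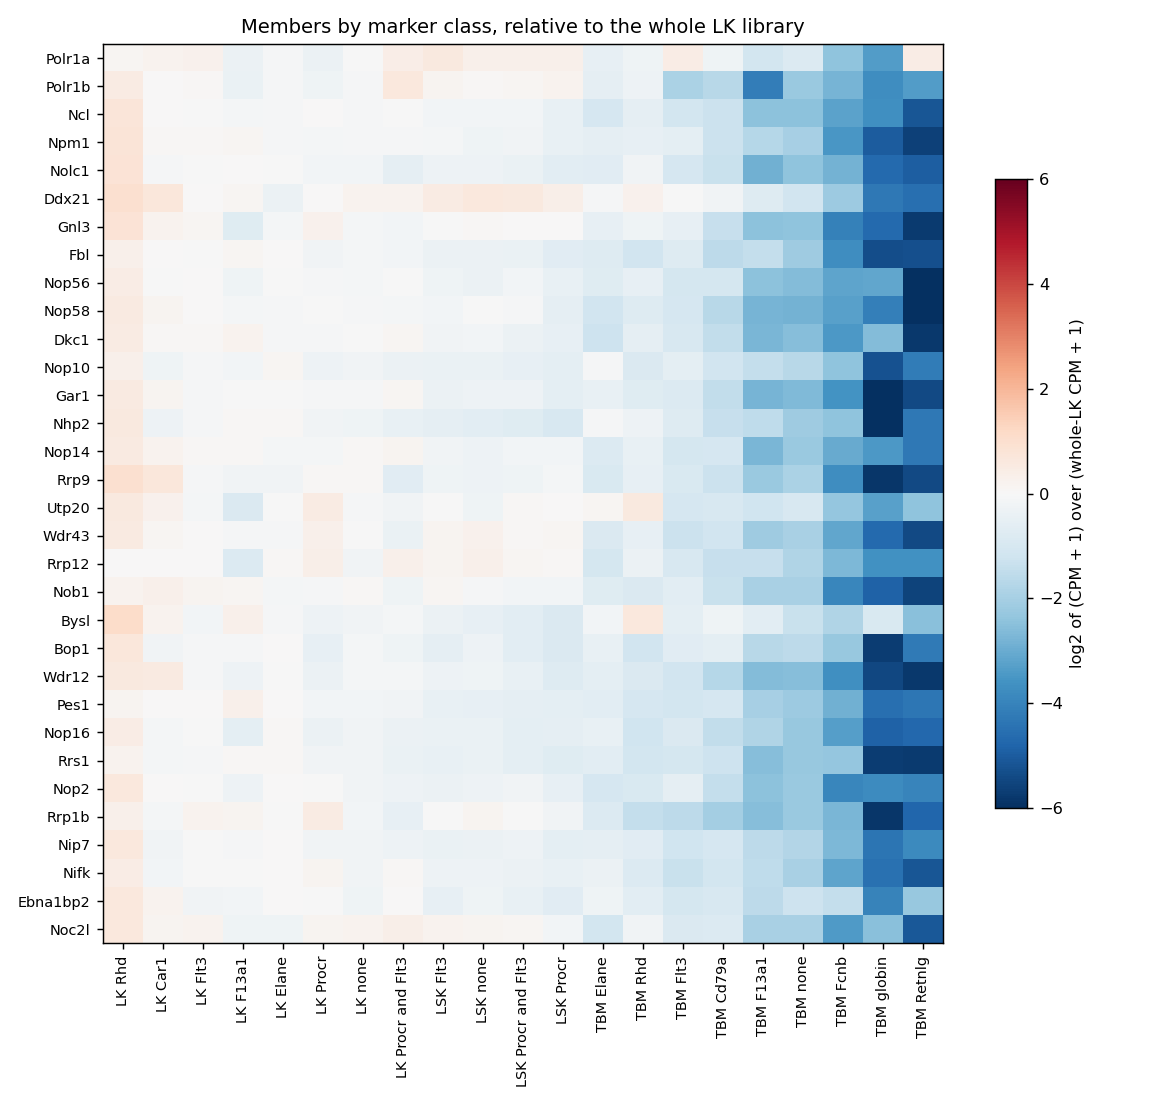
Log2 of CPM + 1 in each library and marker class over CPM + 1 in the whole LK library, by gene (rows) and class (columns, ordered by summed CPM). Values are mostly above the LK level in the LK Rhd column and lowest in TBM Retnlg and globin. Polr1a in TBM Retnlg (22.0 CPM) and Bysl in TBM globin (15.7 CPM) stand out from their columns. The part of Ccnd3, which overlaps the end of Bysl, was not tested.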

How the data were processed

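Gene expression was measured in 3 single-cell libraries, LSK, LK and TBM, 1 per group, grouped by the labels. The deposited matrices give unnormalized UMI counts for each gene in each barcode, per the file headers. The submitters' processing notes name Cell Ranger 4.0.0 and the build mm10; no source used here gives the annotation release, strand setting or earlier cell filters. Kept barcodes had 200 or more genes and no more than 10% mitochondrial UMIs. Scrublet (scanpy 1.11.5, seed 1) then removed 3, 3 and 61 doublets, or 0.280%, 0.0866% and 1.42%, which in LSK and LK is too few to count as working, so doublets remain. Free RNA was not corrected.

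CPM used total UMIs of the kept cells. Ratios used genes with at least 20 UMIs over both groups, with a floor of 3 UMIs in counts of 2-fold differences. Cells were thinned without replacement to 2000 UMIs. Intervals at 95% cover counting error only. Because each group has 1 library, no test was made. Interval and thinning code was checked on simulated data. Coordinates are from GENCODE M21 (GRCm38), matched by gene identifier, and promoters from RefSeq. The text names all 32 members, the 3 highest and 3 lowest other assembly genes with at least 200 UMIs, and the 3 members most and least like the others. Members, lists and classes were chosen with earlier results of these data known. Alternatives covered scaling, the total, cell filters, cell weights, depth, class cuts and leaving out Npm1 and Ncl. Python 3.11.15, numpy 2.4.6, scipy 1.17.1, pandas 2.3.3 and matplotlib 3.10.9 were used.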

Additional observations from a re-analysis of the deposited data

How the results depend on the processing

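Of 747 recomputed values, 380 stayed within the counting interval or 1.5 times the count, 360 moved beyond it and 7 reversed. With size factors in place of total UMIs, the log2 ratio of LSK over LK reversed for Wdr43 (-0.23), Noc2l (-0.28), the RNA polymerase I genes (-0.11), Myc (-0.076) and the ribosomal protein genes (-0.35), and that of LSK over TBM for Bysl (-0.37); Noc2l also reversed with equal weight for each cell (-0.026). These ratios of single genes and roles were recomputed after the summed values had been seen. The summed ratios did not reverse. The summed log2 ratios of LSK over LK, LK over TBM and LSK over TBM were -0.65, 1.64 and 0.98 with size factors from the median gene, -0.25, 1.86 and 1.62 with globin, S100a8, S100a9, ribosomal protein and mitochondrial UMIs left out of the total, -0.28, 2.20 and 1.92 with equal weight for each cell, -0.29, 2.22 and 1.93 after thinning to 2000 UMIs, and -0.30, 1.94 and 1.64 without Npm1 and Ncl. Size factors (0.648 LSK, 2.08 LK, 0.729 TBM) brought the median of all genes near 0 (-0.04, 0.04 and -0.03). Members below 0 in LSK over LK then numbered 30 of 32, and the 2-fold count there was 1. In LSK over TBM the 2-fold count was 19 and 1 member was below 0. The share of all genes at 2-fold was not counted on that scale. The mean per cell without Npm1 and Ncl was 6.57 (LSK), 8.15 (LK) and 1.87 (TBM), and TBM thinned to 4000 gave 2.96 per 2000 UMIs. With abundant genes out of the total, class levels were 9585 (LSK Flt3), 8167 (LSK Procr), 10256 (LK Procr with Flt3), 16852 (LK Rhd), 7639.8 (TBM Elane) and 425 CPM (TBM Retnlg), and ratios were 0.51 (LK Rhd over Car1) and, LK over TBM, 0.86 (Flt3), 0.48 (Elane), 2.03 (F13a1) and 1.09 (Rhd). Halved class cuts gave 4833 CPM (TBM Elane), 232 CPM (TBM Retnlg), 0.61 (Rhd over Car1) and 0.14 (LK F13a1 over Elane); doubled cuts gave 289 CPM (TBM Retnlg), 0.51 and 1.64 (TBM Fcnb over Retnlg), and LK F13a1 kept 2 cells and no value. Class ratios at 2000 UMIs per cell were 0.30 (LSK Flt3 over Procr) and, LK over TBM, 0.92 (Flt3), 0.60 (Elane), 1.99 (F13a1) and 1.64 (Rhd); Rhd cells of TBM with globin under 100 gave 0.62 pooled and 1.23 at that depth. These were chosen after seeing the data. The cause was not tested.

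No paired analysis was possible because each group has 1 library, and for the same reason leaving a library out leaves no comparison. Depth limited Polr1a, Polr1b, Utp20 and Rrp12, and the classes under 100 cells. Replicate spread between mice was not measured, so a difference between gates and one between single libraries cannot be told apart.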
